A study of Mus musculus with 4 samples.

Results

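The exocrine pancreas was followed here through 34 genes of the acinar cell, the cell that makes the digestive enzymes, in RNA from pancreatic islets of WT mice and of mice with a GPR41 transgene (41 Tg). The genes were listed by name as digestive enzymes, zymogen granule proteins, protease inhibitors and acinar transcription factors, and the rule itself uses no difference between arrays. Of the 34, 31 were measured by an array probeset that the platform annotation pairs with that gene alone, among 22180 genes measured in this way. Where a gene had several such probesets, the brightest stood for it. Cela2a and Try10 were read only by probesets that also name another gene, and Pnlip had no probeset in the annotation used.

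The WT and 41 Tg mice were C57BL/6 littermates aged 5 to 6 months, per the labels, which also give an incubation of the isolated islets in RPMI medium and a purification of total RNA. Each group had 2 arrays (Affymetrix Mouse Gene 2.0 ST), called biological replicates without a statement of whether 1 mouse or a pool supplied each. The promoter of the transgene and the cells that express it are not stated in the labels. All values are log2 levels as deposited, so a difference of 1 is a 2-fold change. Where 4 values of a gene follow each other, they are those of WT replicates 1 and 2 and then of Tg replicates 1 and 2.

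Acinar cells form the bulk of the pancreas around the islets. They store proenzymes in zymogen granules and release them into the ducts, where they reach the gut and are activated by trypsin. Their gene programme is held by the PTF1 complex, in which Ptf1a pairs with an E protein and with Rbpjl, and by the regulators Nr5a2 and Bhlha15. Islets are separated from this tissue by digestion and picking, and acinar transcripts in islet RNA are commonly read as exocrine carry-over. In bulk RNA, fewer acinar cells and less RNA per acinar cell cannot be told apart.

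Many promoters of these genes, but not all, hold short sequences of the kind that the acinar regulators are known to bind. Such letters also occur in other promoters, with the shares given below, and binding was not measured. The promoters of Amy1, Gp2, Pla2g1b, Pnlip, Pnliprp1, Ptf1a, Rnase1 and Sycn held none of the sequences marked below. The 5 promoters printed here cover the range of behaviour on these arrays, and all of them hold a marked sequence. Each line gives the 250 bases before the RefSeq start site (GRCm38.p6), 5′ to 3′ on the gene's strand. Capitals mark the E-box letters CACCTG or CAGCTG, the TTTCCC box that Rbpjl binds within PTF1, and AAGGTCA, the core of a site of Nr5a2, each on either strand.
Cela1 (chr15:100687921-100688170, minus strand): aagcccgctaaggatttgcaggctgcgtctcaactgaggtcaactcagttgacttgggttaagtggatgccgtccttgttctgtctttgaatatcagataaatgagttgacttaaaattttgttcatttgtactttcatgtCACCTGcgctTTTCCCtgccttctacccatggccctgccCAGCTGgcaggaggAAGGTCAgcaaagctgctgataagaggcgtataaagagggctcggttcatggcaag
Ctrb1 (chr8:111691011-111691260, minus strand): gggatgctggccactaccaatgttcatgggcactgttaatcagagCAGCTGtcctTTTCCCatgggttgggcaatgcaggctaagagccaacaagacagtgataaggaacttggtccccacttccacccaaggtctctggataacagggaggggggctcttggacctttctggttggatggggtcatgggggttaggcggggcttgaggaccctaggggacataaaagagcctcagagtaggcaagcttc
Cel (chr2:28563404-28563653, minus strand): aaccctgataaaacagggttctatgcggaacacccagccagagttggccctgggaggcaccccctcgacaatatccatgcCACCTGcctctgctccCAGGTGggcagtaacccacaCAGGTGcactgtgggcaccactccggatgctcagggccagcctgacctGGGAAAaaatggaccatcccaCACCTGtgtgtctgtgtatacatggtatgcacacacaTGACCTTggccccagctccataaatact
Cuzd1 (chr7:131322293-131322542, minus strand): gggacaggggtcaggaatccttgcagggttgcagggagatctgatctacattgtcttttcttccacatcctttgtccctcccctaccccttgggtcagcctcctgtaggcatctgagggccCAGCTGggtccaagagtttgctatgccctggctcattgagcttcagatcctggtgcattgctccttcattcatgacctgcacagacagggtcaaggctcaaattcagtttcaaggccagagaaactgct
Bhlha15 (chr5:144190036-144190285, plus strand): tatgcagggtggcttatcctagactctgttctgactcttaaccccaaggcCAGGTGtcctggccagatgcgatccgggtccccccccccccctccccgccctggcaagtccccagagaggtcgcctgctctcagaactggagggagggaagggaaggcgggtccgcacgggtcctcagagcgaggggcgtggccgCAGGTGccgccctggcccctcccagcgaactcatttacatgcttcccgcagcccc

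Cela1 and Ctrb1 carry an E-box followed after 4 bases by TTTCCC, starting 109 bases before the start site in Cela1 and 205 bases before it in Ctrb1. This arrangement (CANNTG, then any 4 bases, then TTTCCC, on either strand), added after the other motifs had been searched, was present in 2 of 30 promoters of the listed genes and in 0.0944% of 32851 mouse promoters. Cel, which encodes the bile salt-dependent lipase, holds 4 E-boxes of the CACCTG form, and AAGGTCA on the other strand 28 bases before its start. Cuzd1, with the widest difference between the WT arrays, has a single CAGCTG, and Bhlha15, which did not follow the enzymes, has CACCTG on the opposite strand at 200 and at 55 bases before its start.

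Motifs were counted in the window from 250 bases before to 50 after the start. The 30 promoters belong to 28 of the 34 genes, since Amy1 and Nr5a2 have 2 starts each. CACCTG stood in 16 of the 30 (53.3%) against 20.2% of all promoters. CAGCTG, which reads the same on both strands, stood in 7 (23.3%) against 16.3%. The general E-box CANNTG, which includes both of these, stood in 24 (80.0%) against 72.3%. TTTCCCA stood in 5 (16.7%) against 8.06%, and its shorter form TTTCCC in 9 of the 30 against 25.2% of all. CAAGGTCA stood in 2 (6.67%) against 1.56%, and its core AAGGTCA in 3 of the 30 against 4.72% of all; both shorter forms were added after the others had been searched. These shares are descriptions of letters in the windows and were not tested.

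The transgene was visible on both Tg arrays, with Ffar3, the mouse gene of GPR41, at 7.09 and 6.47 in WT replicates 1 and 2 and at 11.02 and 10.98 in Tg replicates 1 and 2. Array medians lay between 6.43 and 6.47, and pairs of arrays correlated at 0.986 to 0.994 (Pearson's r across 27037 probesets, which are no replicates). Islet markers were bright on every array, with a mean over 18 endocrine genes of 11.85 and 11.64 in WT and of 11.67 and 11.72 in Tg. Their WT replicate 2 minus WT replicate 1 differences ran from -0.43 (G6pc2) to -0.03 (Gcg). The median was -0.22, against -0.03 over all tested genes. WT replicate 2 stood apart from the other 3 arrays in genes of the seminal vesicle, an accessory gland of the male reproductive tract. The mean of 10 such genes, chosen after their values were seen, was 9.41 on that array against 4.45 on WT replicate 1 and 4.56 and 4.60 on the Tg arrays. The Tg minus WT comparison of the acinar genes, and each call named from another list, is therefore given with and without WT replicate 2.

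None of the 31 acinar genes passed the test between Tg and WT islets with all 4 arrays. With limma, 0 of 31 were called at an adjusted p under 0.05, where 0.897% of all genes were, with 149 (0.672%) higher and 50 (0.225%) lower in Tg. At an unadjusted p under 0.05 the count was also 0 of 31, against 11.8% of all genes, and it was 0 too with an ordinary linear model without variance moderation. With a WT array left out that count was no longer 0. Such a fit sets 1 WT array against 2 Tg arrays and measures the spread within a group from the Tg pair alone. Its counts therefore cannot be set beside these. With all 4 arrays the lowest adjusted p was 0.497, for Bhlha15. In the fitted means 15 genes were higher and 16 lower in Tg. The median difference was -0.017, the same as over all tested genes.

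The differences that stood out were those between arrays of the same genotype. The mean over the 31 genes was 9.25 on WT replicate 1 and 10.38 on WT replicate 2, and 9.98 on Tg replicate 1 and 9.56 on Tg replicate 2. The Tg arrays thus lay between the WT arrays. WT replicate 2 was above WT replicate 1 in 29 of 31 genes, against 44.4% of all tested genes, by at least 1.5-fold in 25, against 2.58%, and by at least 2-fold in 19, against 0.906%. It was at least 2-fold lower in 0 of 31, against 0.0406%. Tg replicate 1 was above Tg replicate 2 in 28 of 31, against 48.5%, and by at least 1.5-fold in 7, against 1.21%. The order from low to high of WT replicate 1, Tg replicate 2, Tg replicate 1 and WT replicate 2 was found in 23 of the 31 genes and in 4.1% of all tested genes. Each of these comparisons sets 1 array against 1 and has no replicate, so no test was made.

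**Figure D1:**
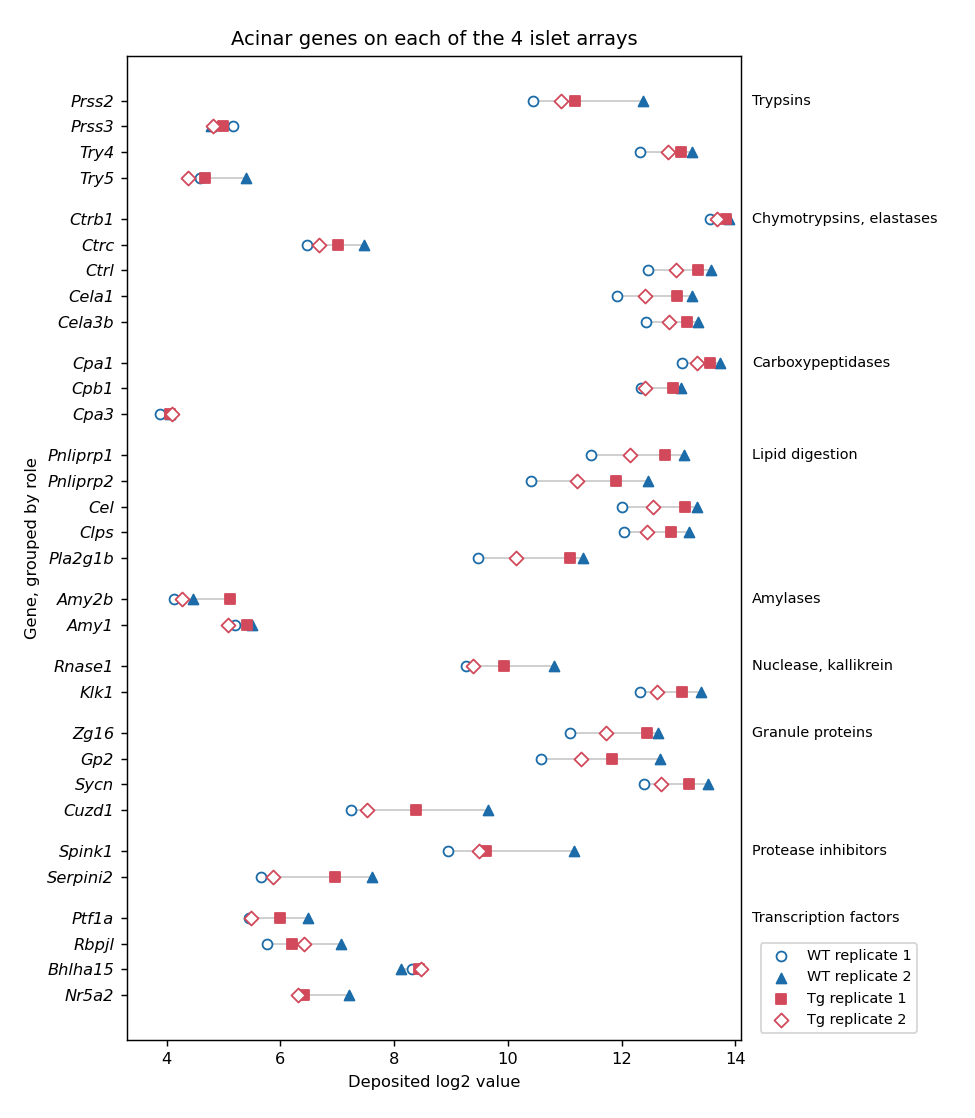
Deposited log2 value (horizontal axis) of the 31 measured acinar genes (rows, grouped by role) on the 4 islet arrays, with circles and triangles for WT replicates 1 and 2 and squares and diamonds for Tg replicates 1 and 2. In 23 genes the values rise from WT replicate 1 through Tg replicate 2 and Tg replicate 1 to WT replicate 2, while Bhlha15, Cpa3, Prss3 and Amy1 stayed within narrow ranges.

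Among the trypsins, Prss2, which encodes a major trypsinogen, gave 10.44 and 12.37 on WT replicates 1 and 2 and 11.19 and 10.93 on Tg replicates 1 and 2. The WT arrays thus differed 3.80-fold, and both Tg arrays fell inside that gap. Its Tg minus WT difference of -0.34 (SE 0.58, n = 2 and 2) did not pass the limma test (unadjusted p = 0.575, adjusted p = 0.895). Try4, another trypsinogen gene, gave 12.32, 13.24, 13.04 and 12.81 in the same array order (difference 0.15, SE 0.30). Prss3 (5.17, 4.79, 5.0 and 4.82) and Try5 (4.58, 5.39, 4.68 and 4.38) were dim, with means below 4.95, the first quartile of tested genes. The trypsin genes are close copies of each other, and the annotation gives Try10 and a further probeset of Prss3 jointly with neighbouring copies. The probeset of Try10 and Gm5409 gave 4.85, 5.61, 5.41 and 5.13, and that of Prss3 and Gm10334 gave 7.81, 8.51, 8.41 and 8.15. Both took the array order of the other enzymes, and neither passed the test between the groups (adjusted p = 0.981 and 0.926 in the limma fit of all probesets). Values of single trypsin genes are uncertain to the extent that probes are shared.

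Chymotrypsins and elastases, which cut proteins once trypsin has activated them, were bright in all islet samples. Ctrb1, chymotrypsinogen B, gave 13.56 and 13.89 in WT and 13.83 and 13.67 in Tg. These are among the highest values on the arrays, and the WT gap was only 1.26-fold. Ctrl, a chymotrypsin-like protease, gave 12.46, 13.57, 13.34 and 12.96 on WT replicates 1 and 2 and Tg replicates 1 and 2. Cela1, a pancreatic elastase, gave 11.92, 13.24, 12.97 and 12.41, a WT gap of 2.50-fold, and Cela3b gave 12.43, 13.34, 13.15 and 12.84. The single-gene probeset of Ctrc, the chymotrypsin that regulates trypsinogen, was dimmer at 6.47, 7.48, 7.01 and 6.68, and the probeset shared by Cela2a and Ctrc gave 11.81, 13.10, 12.92 and 12.33. All of these ran in the same order of arrays. The Tg minus WT differences of the 5 single-gene probesets ranged from -0.13 (Ctrc, SE 0.33) to 0.13 (Ctrl, SE 0.36).

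Of the carboxypeptidases, which trim amino acids from the C-terminal end of peptides, Cpa1 gave 13.07, 13.73, 13.56 and 13.32 and Cpb1 gave 12.35, 13.05, 12.91 and 12.41. Their WT gaps were 1.58-fold and 1.63-fold. Cpa3 did not share this pattern, with 3.89 and 4.06 in WT and 4.06 and 4.09 in Tg. It encodes the carboxypeptidase of mast cells and is not an acinar enzyme. Among the other mast cell genes, Tpsb2, a mast cell tryptase, gave 4.83, 4.73, 4.75 and 4.84, while the receptor gene Kit was brighter at 7.70, 7.58, 7.17 and 7.09 and the transcription factor gene Gata2 gave 6.01, 5.96, 6.10 and 6.10. The mean over 14 mast cell genes, Cpa3 included, was 4.53 and 4.47 in WT and 4.58 and 4.49 in Tg.

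The genes of fat digestion showed wide gaps between the WT arrays. Pnliprp2, a pancreatic lipase-related protein, gave 10.41 and 12.47 in WT and 11.91 and 11.22 in Tg, a WT gap of 4.19-fold. Pla2g1b, the secreted pancreatic phospholipase A2, gave 9.47, 11.32, 11.10 and 10.14, and its Tg arrays differed 1.95-fold. Pnliprp1 gave 11.46, 13.09, 12.77 and 12.14. Cel gave 12.0, 13.33, 13.11 and 12.56, and Clps, the colipase that anchors lipase at the fat droplet, gave 12.04, 13.18, 12.87 and 12.45. All 5 genes followed the order of arrays seen in the proteases. Their Tg minus WT differences lay between 0.05 (Clps, SE 0.37) and 0.22 (Pla2g1b, SE 0.62).

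Amylase, the starch-digesting enzyme, was read in 2 ways. The single-gene probesets were dim, with Amy1, the salivary and liver amylase, at 5.21 and 5.51 in WT and 5.42 and 5.08 in Tg, and Amy2b at 4.13, 4.47, 5.12 and 4.28. Tg replicate 1 was the highest array for Amy2b. The pancreatic Amy2 genes are near copies, and 4 probesets that name 6 of them jointly were bright. The first of these gave 13.22 and 13.68 in WT and 13.59 and 13.42 in Tg, and its difference of 0.05 (SE 0.18) did not pass the limma fit of all probesets (adjusted p = 0.960). The other 3 gave differences of 0.03 to 0.05. A further set of 4 probesets for Amy2a5 and Amy2a2 held identical values of 8.11 and 8.36 in WT and 8.64 and 8.69 in Tg, so their groups did not overlap, but the difference of 0.43 (SE 0.13) had an adjusted p of 0.297.

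Rnase1, the pancreatic ribonuclease, gave 9.27 and 10.82 in WT and 9.94 and 9.38 in Tg, a difference of -0.38 (SE 0.50). Klk1, tissue kallikrein, gave 12.32, 13.40, 13.06 and 12.63. Both had the WT arrays at the outside and the Tg arrays between.

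Granule proteins and protease inhibitors had the widest spread. Cuzd1, a zymogen granule membrane protein, gave 7.25 and 9.65 in WT and 8.39 and 7.53 in Tg. Its WT arrays differed 5.28-fold, more than for any other of the 31 genes, and its Tg minus WT difference was -0.50 with a 95% interval of -2.37 to 1.38. Gp2, the main glycoprotein of the granule membrane, gave 10.58, 12.67, 11.84 and 11.28. Zg16, a granule lectin, gave 11.09, 12.64, 12.44 and 11.72, and Sycn, syncollin, gave 12.40, 13.52, 13.19 and 12.69. All 4 granule genes took the common order.

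Serpini2, a serine protease inhibitor of the pancreas, gave 5.66, 7.61, 6.96 and 5.87, and was the only gene of the 31 with a Tg gap of at least 2-fold (2.12-fold), where 0.176% of all tested genes had one in that direction. Spink1, the trypsin inhibitor of the acinar cell, gave 8.94 and 11.17 in WT and 9.61 and 9.49 in Tg. Its WT gap of 4.69-fold was the next widest after that of Cuzd1, while its Tg arrays differed only 1.08-fold. Spink1 is also a secreted protein of the seminal vesicle, whose genes were high on WT replicate 2, and their part in its value was not tested.

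The transcription factors differed among themselves. Ptf1a gave 5.45 and 6.48 in WT and 5.99 and 5.48 in Tg, in the order of the enzymes. A second, dimmer probeset of Ptf1a gave 3.79, 4.01, 3.96 and 3.99 and showed no such gap. Rbpjl gave 5.76 and 7.07 in WT but 6.20 and 6.42 in Tg, so that its Tg arrays ran against the common order. Nr5a2, a nuclear receptor of acinar and liver genes, gave 6.33 and 7.21 in WT and 6.41 and 6.31 in Tg, with WT replicate 2 alone at a high level.

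Bhlha15, also called Mist1, maintains the secretory architecture of acinar cells. It gave 8.31 and 8.12 in WT and 8.43 and 8.48 in Tg. It was lowest on WT replicate 2, where most enzymes were highest, and it was the only 1 of the 31 genes whose groups did not overlap, against 42.3% of all tested genes. Its difference of 0.24 (SE 0.11, 95% interval -0.04 to 0.52) did not pass the test.

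**Figure D2:**
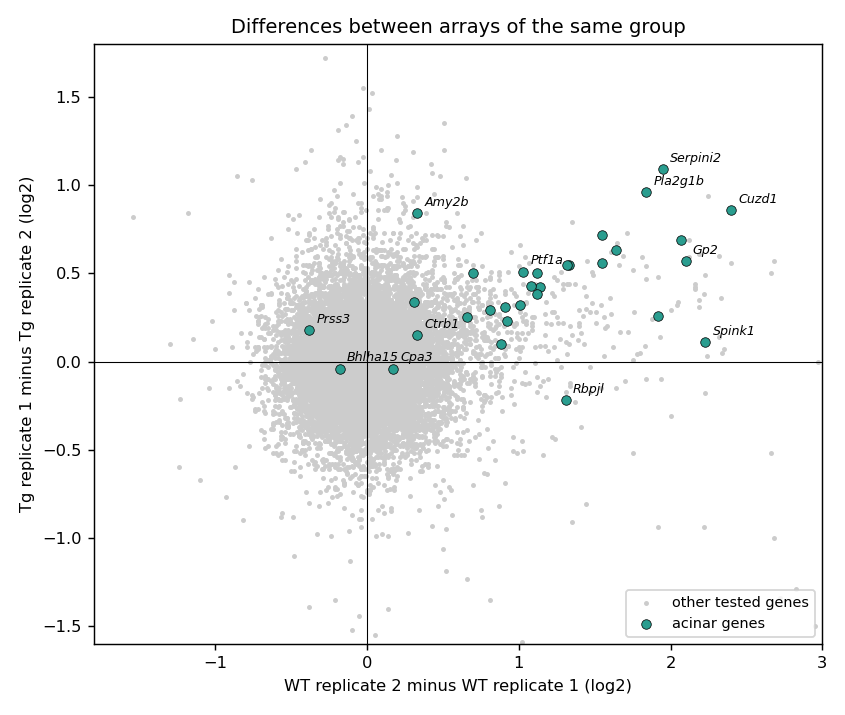
Difference between the WT arrays (horizontal axis, WT replicate 2 minus 1, log2) against the difference between the Tg arrays (vertical axis, Tg replicate 1 minus 2, log2), with the 31 acinar genes in green and the other tested genes in grey, 24 of which lie outside the axes. Most acinar genes sit in the upper right, with Cuzd1 at 2.40 and 0.86, while Bhlha15, Cpa3 and Prss3 sit near the origin and Rbpjl lies below the horizontal line.

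Across the 31 genes, Pearson's r between the WT gap and the Tg gap was 0.51, as a description, since the genes share the same 4 arrays. The WT gap had a median of 1.12 and ran from -0.38 (Prss3) to 2.40 (Cuzd1). The Tg gap had a median of 0.42 and ran from -0.22 (Rbpjl) to 1.09 (Serpini2). Over all tested genes the medians were -0.03 and -0.01.

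The size of the gap varied with brightness among the brightest genes. In all, 13 of the 31 lay in the top 1% of tested genes by mean level, at 11.83 or above, and among these the WT gap and the mean level correlated at r = -0.84 across genes, which share the arrays and the scanner range. Ctrb1 (mean 13.74) had a WT gap of 0.33 and Zg16 (mean 11.97) one of 1.55. The part of the scanner range in these gaps was not tested. Without those 13 genes the mean gap was 1.19 for the WT pair and 0.41 for the Tg pair, against 1.13 and 0.42 with them.

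The sign of the Tg minus WT difference of most acinar genes was set by which WT array was kept. Without WT replicate 1, 27 of the 31 were lower in Tg, with a median of -0.56. Without WT replicate 2, 29 of the 31 were higher, with a median of 0.57. Each of these fits set 1 WT array against 2 Tg arrays. The spread within a group was then measured from the Tg pair alone, so only differences are read from them. Spink1 had a difference of -1.62 without WT replicate 1 and of 0.61 without WT replicate 2. It was called in the first of these fits only, where its Tg arrays, the only pair, differed 1.08-fold.

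With all 4 arrays the intervals were wide. The median residual SD was 0.59 for the acinar genes and 0.11 for all tested genes. The 95% interval reached a 2-fold difference in 1 or both directions for 18 of the 31 genes. It stayed within 1.5-fold for 5, namely Amy1, Bhlha15, Cpa3, Ctrb1 and Prss3. A missed threshold here does not show that the groups were alike.

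**Figure D3:**
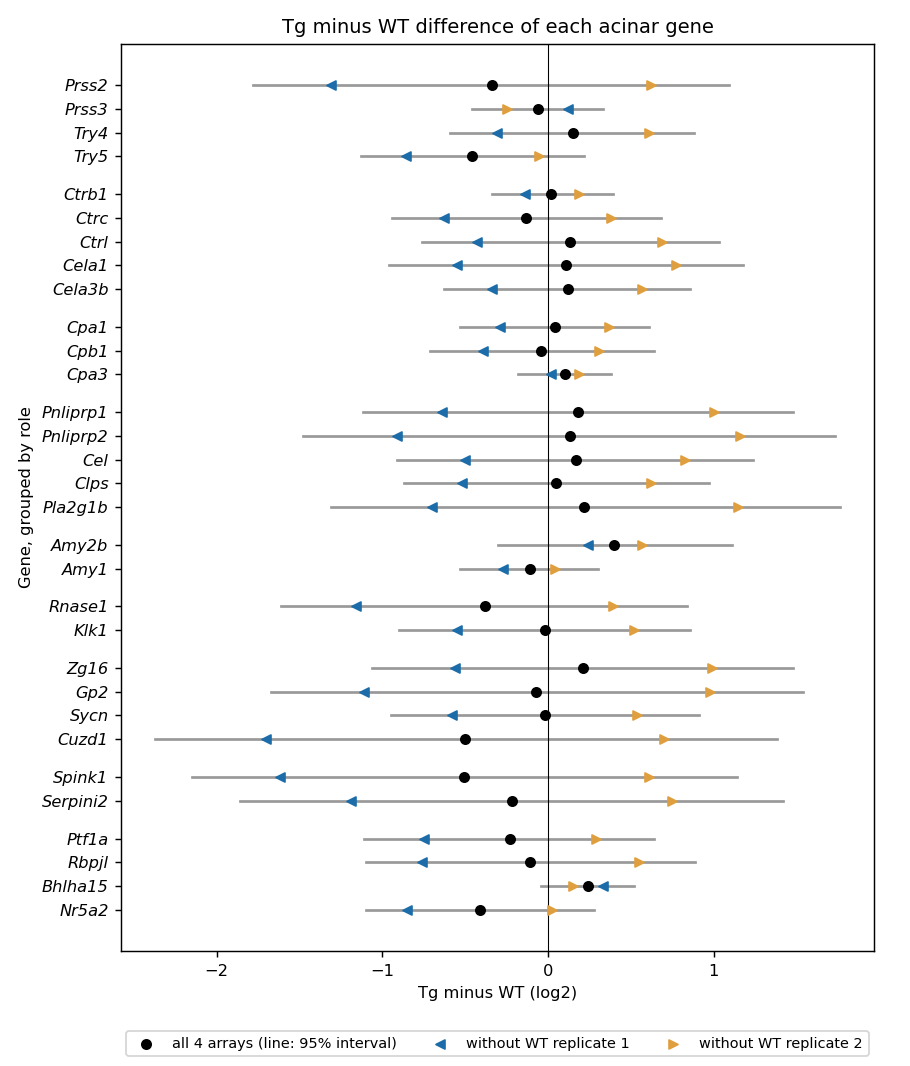
Tg minus WT difference (horizontal axis, log2) of each of the 31 acinar genes (rows), with black points and grey lines for the limma estimate and its 95% interval from all 4 arrays, and coloured triangles for the fits without WT replicate 1 or 2. The 2 triangles of most genes lie on opposite sides of 0, as for Cuzd1 at -1.70 and 0.70, and no interval excludes 0.

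Other genes of the acinar cell, from lists drawn up by function with earlier results of these data known, shared the gap in part. Of 15 measured further enzymes and secreted acinar proteins, 0 were called between Tg and WT, where 0.897% of all genes were. On WT replicate 2, 7 were at least 2-fold higher than on WT replicate 1, against 0.906% of all tested genes. Tff2, a trefoil peptide, gave 9.26 and 11.94 in WT and 10.61 and 10.04 in Tg. The trypsinogen Prss1 gave 10.79, 11.70, 11.33 and 10.95, and Reg1, an acinar secreted lectin, gave 12.46, 13.41, 13.09 and 12.87. Reg2 (10.79 and 12.43 in WT, 11.19 and 11.34 in Tg) and Reg3d (9.55 and 11.89, 10.13 and 10.08) had a WT gap without a matching Tg gap. The smallest p of the list was that of Spink5, a protease inhibitor (difference 0.47, SE 0.14, adjusted p = 0.284), and the list median of the Tg minus WT difference was -0.02.

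Of 36 genes of acinar stimulus and granule release, 5 were at least 2-fold higher on WT replicate 2, against 0.906% of all tested genes. Cckar, the receptor through which cholecystokinin triggers enzyme release, gave 5.04 and 6.60 in WT and 5.38 and 5.35 in Tg. The chloride channel gene Ano1 gave 7.11, 9.27, 7.84 and 7.43. Vamp8, a granule fusion protein, had close WT values, with 9.98 and 10.04 in WT and 10.14 and 10.35 in Tg. In this list 1 gene was called, where 0.897% of all genes were. It was Vipr1, a receptor of vasoactive intestinal peptide, which fell in Tg (difference -0.82, SE 0.11, adjusted p = 0.0431). Without WT replicate 2 its difference was -0.89, and with another array left out it lay between -0.75 and -0.84. No such fit kept the call. The next smallest p was that of Itpr3, a calcium release channel, which did not pass (difference -0.85, SE 0.15, adjusted p = 0.0844), and the list median was -0.09.

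Of 26 transcription factors around PTF1, 0 were called, where 0.897% of all genes were. On WT replicate 2, 2 were at least 2-fold higher, against 0.906% of all tested genes. They were Gata4 (6.65 and 7.74 in WT, 7.10 and 6.90 in Tg) and Sox9 (6.83 and 8.71, 7.36 and 7.12). Sox9 is also counted in the duct list. The general partners of Ptf1a had narrower ranges, with Rbpj at 8.76, 8.81, 8.99 and 8.85 and Tcf12 at 9.51, 9.65, 9.46 and 9.44. The smallest p was that of Foxa2, a factor of endoderm development (difference -0.48, SE 0.11, adjusted p = 0.154). The list median of the Tg minus WT difference was -0.08.

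Markers of other cells moved with the acinar genes in part. Among 15 duct genes, 6 were at least 2-fold higher on WT replicate 2, against 0.906% of all tested genes. Krt19, a keratin of duct cells, gave 6.91 and 9.31 in WT and 8.38 and 7.82 in Tg, and Muc1 gave 7.86, 10.02, 8.48 and 8.06. The duct mean was 8.24 and 8.99 in WT and 8.64 and 8.49 in Tg, the same order as for the acinar genes. Krt7, another duct keratin, ran the other way, with 8.63 and 8.30 in WT. The WT gaps of Krt19 (2.40) and Muc1 (2.16) stood beside Tg gaps of 0.56 and 0.42. WT replicate 2 was also the array with high seminal vesicle genes. The part of seminal vesicle RNA in the values of the duct list was not tested. The list held 2 calls between the groups, where 0.897% of all genes were called. Cftr was higher (difference 2.30, SE 0.23, adjusted p = 0.0211) and Prom1 lower in Tg (difference -1.0, SE 0.12, adjusted p = 0.0355). The Cftr difference was 2.64 without WT replicate 2, 1.95 without WT replicate 1, 2.27 without Tg replicate 1 and 2.32 without Tg replicate 2. Its call was lost without Tg replicate 1 and without Tg replicate 2. It was kept without a WT array, where the spread came from the Tg pair alone (7.80 and 7.75). The gap between the WT arrays (5.13 and 5.83) was then left out of the error. The Prom1 difference was -1.03 without WT replicate 2 and lay between -0.88 and -1.12 with another array left out. No such fit kept its call. Leukocyte genes had no gap of the acinar kind in WT (means of 6.75 and 6.56 over 17 genes). They were higher on Tg replicate 1 (7.95) than on Tg replicate 2 (7.36), the direction of the acinar genes in Tg. The leukocyte list median of the Tg minus WT difference was 1.10. In that list Coro1a, an actin-binding protein of leukocytes, was called, higher in Tg (difference 0.94, SE 0.10, adjusted p = 0.0309). The Coro1a difference was 0.95 without WT replicate 2 and lay between 0.90 and 0.97 with another array left out. No such fit kept its call.

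Endothelial means over 12 genes were 8.10 and 7.92 in WT and 8.59 and 8.29 in Tg. Mesenchymal means over 14 genes were 6.99, 7.13, 7.54 and 7.36, and Schwann cell means over 6 genes were 6.01, 5.85, 6.11 and 6.04. None of these 3 lists, the mast cell list or the endocrine list held a call, where 0.897% of all genes were called. The part of duct, leukocyte and seminal vesicle RNA in the acinar values was not tested. On Tg replicates 1 and 2 the seminal vesicle mean was 4.56 and 4.60, with Svs5 at 4.26 and 5.13 and Ceacam10 at 7.48 and 7.07, and the acinar mean was 9.98 and 9.56.

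**Figure D4:**
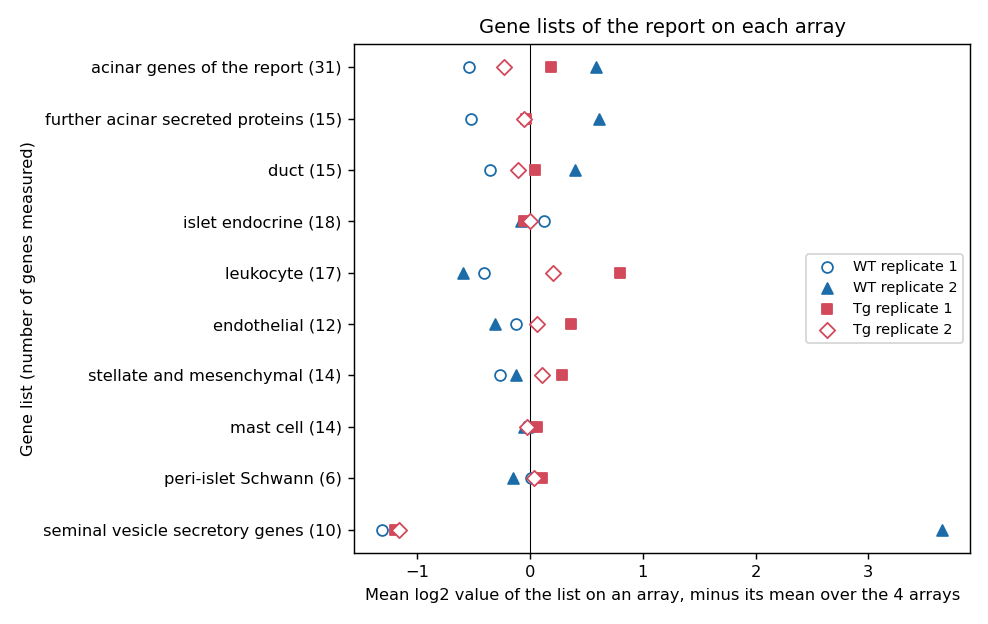
Mean log2 value of each gene list on an array, minus the list's mean over the 4 arrays (horizontal axis), for the 31 acinar genes and 9 other lists (rows), with the symbols of the arrays as in the plot of single genes. The acinar, further acinar and duct lists are highest on WT replicate 2 and lowest on WT replicate 1. The leukocyte, endothelial, mesenchymal, mast cell and Schwann cell lists are highest on Tg replicate 1. The seminal vesicle list stands far to the right on WT replicate 2. Its means before this subtraction were 9.41 there against 4.45 to 4.60 elsewhere.

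Genes outside the list were ranked by the smaller of their WT gap and their Tg gap, in the directions seen in the acinar genes. The ranking used 4 arrays, with predicted genes left out. Aqp12, a water channel of the acinar cell, came first with 6.79 and 9.04 in WT and 8.15 and 7.21 in Tg. It was followed by B4galnt1 (6.83, 8.54, 8.03 and 7.30), Mpzl2 (5.13, 7.25, 6.15 and 5.46), Olfr714 (3.87, 4.59, 4.90 and 4.21) and Slc7a11, the cystine transporter (8.80, 10.45, 10.18 and 9.51). The next 5 were Mir181b-1, Mfge8, Mir28a, Oog1 and Gal, the last of which encodes the neuropeptide galanin (6.81, 8.42, 7.83 and 7.21). The ranking did not ask for Tg values between the WT values. In Olfr714, Mir181b-1, Mfge8, Mir28a and Oog1 a Tg array lay outside the WT pair. Of these 10 genes, 0 were called between Tg and WT, where 0.897% of all genes were. The ranking takes wide gaps within a group, and these enter the error of that test. The count therefore says nothing about a group difference in these genes. In 6 of the 31 acinar genes the smaller of both gaps was at least as large as the 0.62 of Gal.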

How the data were processed

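The authors deposited log2 values for 27037 probesets on 4 arrays, made from 250 ng of total RNA each. Partek and RMA are named in the submitters' processing notes, without versions; the genome build was not given in the sources used here. The platform annotation paired 23521 probesets with 1 gene symbol, and the brightest per gene left 22180 genes, with no filter on dim genes.

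Differences (Tg minus WT) came from limma 3.58.1 (lmFit, eBayes; R 4.3.3), fitted over all 22180 genes, with Benjamini-Hochberg adjustment, 2 residual degrees of freedom and 3.76 added by moderation. For 2 arrays against 2, the smallest two-sided p of an exact permutation test is 0.333. The fit was tested on simulated data. The number of arrays limits the precision. Promoters came from RefSeq (GRCm38.p6). The genes and lists were chosen with earlier results of these data known. All 31 genes were described by role. From the other lists, genes with the smallest p were to be named. Genes of those lists given for their WT gap or for contrast with it were chosen after their values were seen. The alternatives are those of the closing section.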

Additional observations from a re-analysis of the deposited data

How the results depend on the processing

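With each array left out in turn, 28 of the 31 acinar genes turned sign at least once. Their Tg minus WT differences were Amy1 between -0.28 and 0.056, Amy2b between -0.02 and 0.82, Cel between -0.50 and 0.83, Cela1 between -0.55 and 0.77, Cela3b between -0.34 and 0.57, Clps between -0.52 and 0.62, Cpa1 between -0.29 and 0.37, Cpb1 between -0.39 and 0.31, Ctrb1 between -0.14 and 0.19, Ctrc between -0.63 and 0.38, Ctrl between -0.43 and 0.69, Cuzd1 between -1.70 and 0.70, Gp2 between -1.11 and 0.98, Klk1 between -0.55 and 0.52, Nr5a2 between -0.85 and 0.027, Pla2g1b between -0.70 and 1.15, Pnliprp1 between -0.64 and 1.00, Pnliprp2 between -0.91 and 1.16, Prss2 between -1.31 and 0.62, Prss3 between -0.25 and 0.12, Ptf1a between -0.75 and 0.29, Rbpjl between -0.76 and 0.55, Rnase1 between -1.16 and 0.39, Serpini2 between -1.19 and 0.75, Spink1 between -1.62 and 0.61, Sycn between -0.58 and 0.54, Try4 between -0.31 and 0.61 and Zg16 between -0.56 and 0.99. Bhlha15 and Cpa3 stayed above 0 and Try5 below it. The list median lay between -0.56 and 0.57 (-0.017 with all 4 arrays, 0.031 with a filter at the median level, which kept 24 of the 31, and 0.024 with quantile normalization). The count of acinar genes called lower was 0 to 1, and that called higher was 0 throughout. Genes called over all features were 38 to 135 with each array left out (199 with all 4), where a lone array is assumed to vary like the others. That count was 0 without moderation, 24 with the replicate number of the titles as a block and 347 with a variance trend and robust prior, and the cause was not tested. The differences of replicate 2 from replicate 1 in WT and in Tg correlated at -0.063 over all genes, so the replicate block rests on a shared number only, and under it no acinar gene was called. With quantile normalization once more, Sycn was at 0.024 in place of -0.02, and 1 acinar gene had an unadjusted p under 0.05 (0 with all 4 arrays as deposited). With either WT array or Tg replicate 2 left out that count was also above 0, in fits whose spread within a group came from 1 pair of arrays. Over all 396 values of acinar genes under alternatives, 345 kept direction and call, 50 turned sign (1 of these with all 4 arrays kept), and 1 gained a call (Spink1). Alternatives that change only the variance model, the set of features fitted or the block cannot change a gene's difference. No acinar gene was called with all 4 arrays, so none had a call to lose. The number of values that kept direction and call is therefore no measure of stability. The gap between the WT arrays was 1.11 to 1.20 and that between the Tg arrays 0.41 to 0.44 over the alternatives that changed probesets, scaling or members. In an alternative added after seeing the data, the calls of Vipr1, Prom1 and Coro1a were lost with any 1 array left out and that of Cftr without either Tg array, with no change of direction. Amy2b, Cpa3, Prss3 and Try5 lay below the first quartile of level.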

Other observations

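Genes secreted by the seminal vesicle were high on WT replicate 2 alone. Svs5 was at 4.45 and 13.16 on WT replicates 1 and 2 and at 4.26 and 5.13 on Tg replicates 1 and 2. Svs2 was at 4.21 and 10.82 in WT and 4.47 and 4.37 in Tg, and Svs4 at 4.57 and 10.84 in WT and 4.13 and 4.27 in Tg. All 10 measured genes of that list were at least 2-fold higher on WT replicate 2 than on WT replicate 1, from 2.70-fold for Svs3a to 419-fold for Svs5. The list was put together after these values were seen. Ceacam10, of the same list, gave 6.32 and 11.22 in WT and 7.48 and 7.07 in Tg. None of the 10 passed the limma test between Tg and WT (lowest adjusted p 0.540, for Svs4), where 0.897% of all genes did. The WT gap for which the list was chosen enters the error of that test, so this outcome says nothing further.

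Of the 201 genes at least 2-fold higher on WT replicate 2 than on WT replicate 1, 19 were acinar genes of the report and 182 were not. In the opposite direction, 9 genes were at least 2-fold lower. The gene named 1810009J06Rik, listed here among the acinar secreted proteins, gave 9.06 and 11.78 in WT and 8.96 and 10.30 in Tg, so its Tg arrays ran against those of the other enzymes.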
